A study of Mus musculus with 4 samples.

Results

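The replication-dependent and linker histone genes of the mouse were followed in single cells of the developing mammary gland. They were taken as every gene whose symbol starts with Hist1 to Hist4, then h and a type digit, which gave 67 of the 30406 genes listed at all 4 stages. There were 6 linker histone H1 genes, 18 H2A, 18 H2B, 12 H3 and 13 H4 genes. The study isolated mammary rudiments, epithelium with the mesenchyme around it, from wild-type C57B6 females (C57 B6/N in the study's methods) on embryonic days E13.5, E14.5 and E15.5 and on the day of birth, P0, to follow how the mammary lineages arise. Rudiments of several animals were pooled, blood and endothelial cells were sorted out by surface markers, and EpCAM-positive and EpCAM-negative cells entered 1 10x Genomics 3′ library per stage. Each stage came from its own dissection session and has 1 library, so stage, session and library cannot be told apart, no value has a replicate and no test was made. Levels are in CPM, the UMIs (unique molecular identifiers, distinct captured transcripts) of a gene per 1000000 UMIs of a group of cells. The library tags 3′ ends, so 1 UMI stands for 1 transcript whatever its length. Brackets hold exact 95% intervals, which cover counting error only and not the spread between cells, animals or libraries.

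Histones are the proteins on which DNA is wound. A nucleosome core holds H2A, H2B, H3 and H4, and H1 binds the linker DNA between cores. Replication-dependent histone genes are transcribed in S phase, when new DNA has to be packaged, and lie in clusters of many nearly identical copies. Their mRNAs end in a stem-loop bound by SLBP in place of a poly(A) tail. Replacement histones, such as H2afz and H3f3b, are encoded outside the clusters by genes with ordinary polyadenylated mRNAs and are made throughout the cell cycle. Because a 3′ library captures poly(A), the histone transcripts counted here are those that carried an A-rich stretch, and levels of different histone genes also depend on how often this is so.

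In the GENCODE M21 annotation of GRCm38 (mm10), 54 genes form the Hist1 cluster at chr13:21715763-23934851, 10 form Hist2 at chr3:96219865-96270132, 2 form Hist3 at chr11:58948920-58956830, and Hist4h4 lies alone at chr6:136801553-136804415. A stem-loop of 6 paired bases on each side of a 4-base loop was found in annotated transcripts of 46 of the 67 genes. The search covered annotated bases after the stop codon, and some transcripts without a stem-loop are short, such as that of Hist1h4k at 312 bases. A stem-loop beyond the annotated end would be missed. The commonest forms are shown because this element separates the class from other mRNAs, with the paired bases in capitals. The form of Hist1h2ap was found in 26 genes, including Hist1h1c and Hist3h2ba, that of Hist1h4d in 7, all H4 genes, and that of Hist1h3c in 6.
Hist1h2ap form: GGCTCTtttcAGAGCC
Hist1h4d form: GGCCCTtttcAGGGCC
Hist1h3c form: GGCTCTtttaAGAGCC
In 17 of the 67 genes an annotated transcript also has a poly(A) signal (AATAAA or ATTAAA) within 50 bases of its end. The annotated transcript of Hist1h2ap ends 3 bases after its stem-loop, whereas that of Hist1h1c runs on for 840 bases and that of Hist3h2a for 1643 bases to such a signal. No stem-loop of these letters lies in the annotated transcript of Hist1h2bc, a spliced mRNA from chr13:23684199-23692908.

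A cell was used if it had 5000 or more UMIs, no more than 6% of them mitochondrial, which left 235, 76, 816 and 503 cells in stage order, with a median of 9226 to 25207 UMIs. A cell was epithelial or mesenchymal by the larger of its summed keratin and Epcam UMIs or its summed collagen UMIs. The study removed contaminating skin cells and reports fewer mammary epithelial cells at each stage. Skin cells were not set apart here, so the epithelial class can hold them. Their part in the values was not tested. The epithelial list was 3683 CPM in epithelial against 71.4 in mesenchymal cells at E13.5, and both lists separated the tissues at every stage. Immune markers were at or under 1.19 CPM at the embryonic stages and reached 112 in P0 mesenchymal cells. Haemoglobin transcripts reached 10369 CPM there, and leaving out the 4 cells with at least 5% haemoglobin UMIs, all non-cycling, left the histone level of non-cycling mesenchymal cells at 222 CPM. Cells with 2 or more UMIs of Top2a and Mki67, a topoisomerase and a nuclear protein of dividing cells, were called cycling, 94, 23, 219 and 30 cells in stage order. Cells with none were called non-cycling, 118, 41, 521 and 443 cells. Cycling cells were deeper at every stage, with medians of 13367 to 34875 against 9076 to 22925 UMIs, and the P0 cycling class held 23 epithelial and 7 mesenchymal cells. The E15.5 table was made with Cell Ranger 3.1.0 and the others with 6.0.0, and the part of this difference in the values was not tested.

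The summed histone level differed several-fold between the stages. Over all cells the 67 genes summed to 5798 [5728 to 5869], 2897 [2825 to 2970], 734 [723 to 746] and 809 CPM [784 to 834] in stage order. In cycling cells the level was 11155, 5955, 1648 and 5867 CPM. In non-cycling cells it was 859, 759, 241 and 248 CPM in the same order. Over both tissues the summed level of cycling cells was lowest at E15.5, 6.77-fold below E13.5 [6.62 to 6.92] and 3.56-fold below P0 [3.42 to 3.70]. The same cut of 2 UMIs drew the cycling class at each stage, while median depth of that class was 23350, 34875, 32689 and 13367 UMIs. The part of this depth in the stage differences of cycling cells was not tested. P0 and E15.5 were 1.03-fold apart in non-cycling cells [0.959 to 1.11]. Medians of single cycling cells lay closer together from E14.5 on, at 5811, 874, 564 and 910 CPM in stage order. Within a tissue, summed levels were 12539, 4626, 948 and 6376 CPM in cycling epithelial cells and 10091, 7355, 2645 and 2516 in cycling mesenchymal cells. The gap between E15.5 and P0 in the summed level thus lay in the epithelium. Single-cell medians at E15.5 and P0 were 562 and 1513 CPM in cycling epithelial cells. In cycling mesenchymal cells they were 576 and 187 CPM, lower at P0. Cycling cells were 122 epithelial and 97 mesenchymal at E15.5, and 23 and 7 at P0.

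The difference between E13.5 and E15.5 ran through all 5 types in cycling cells. It was largest for H3, at 806 against 72.0 CPM or 11.2-fold [10.2 to 12.3], and smallest for H1, at 906 against 238 or 3.81-fold [3.57 to 4.06]. H2A lay between, at 7738 against 1027 CPM, as did H4 and H2B at 6.52-fold and 4.43-fold. Other genes of dividing cells differed far less between the same cells. A list of 20 S-phase genes was 1.44-fold higher at E13.5 [1.38 to 1.49], a list of 20 mitotic genes 1.31-fold, and the summed replacement histones were 7364 against 7585 CPM, a ratio of 0.971 [0.954 to 0.988].

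**Figure D1:**
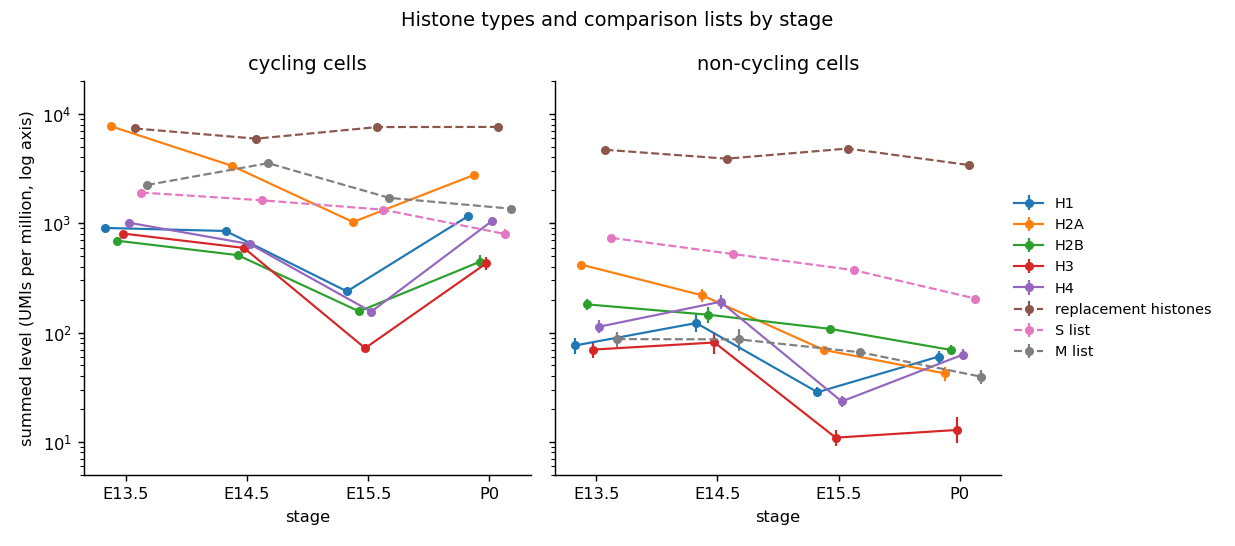
Summed level in CPM (log axis) of the 5 histone types, the replacement histones and the S and M lists at each stage, in cycling (left) and non-cycling cells (right); points are the 1 library of each stage and bars the exact 95% counting interval. The 5 types dip at E15.5 in cycling cells, where H3 is at 72.0 CPM, while the replacement histones stay between 5942 and 7610.

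Gene by gene, 49 of the 52 histone genes with at least 20 UMIs in the cycling cells of both stages together were at least 2-fold higher at E13.5 than at E15.5, and none was 2-fold lower. Of all 11734 genes with that many UMIs 10.7% were 2-fold higher and 11.1% 2-fold lower, and the median ratio was 7.31 for the histone genes against 1.05 for all. The highest ratio was that of Hist1h3b, an H3 gene, at 20.6 [15.2 to 28.4]. Hist1h2ab, an H2A gene, had 508, 438, 31.2 and 140.2 CPM in stage order. The H2B gene Hist1h2bc stood at the other end, with 47.7 CPM in cycling cells of both stages and a ratio of 1.00 [0.795 to 1.25].

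Between E14.5 and E15.5, 43 of 49 histone genes were at least 2-fold higher at the earlier stage, against 15.1% of all genes. At least 2-fold lower at E14.5 were 2 genes (9.83% of all genes), of which the H4 gene Hist1h4i had 20.8 against 45.6 CPM, a ratio of 0.455 [0.266 to 0.730]. Between E13.5 and E14.5, 8 of 52 were 2-fold higher at E13.5 (5.06% of all genes), and Hist1h2an, an H2A gene, was 2-fold lower there, at 38.5 against 129 CPM, as were 7.71% of all genes. Of the 60-base stretches of Hist1h2an 79.7% are shared with other genes, so its counts are uncertain. P0 over E15.5 gave 36 of 45 (11.7% of all genes), with Hist1h4c at 195 against 16.2 CPM the highest, 12.1-fold. There 1 gene was 2-fold lower, Hist4h4 with no UMI in P0 cycling cells, against 24.95% of all genes. It had 25 UMIs in the 219 cycling cells of E15.5, and P0 had 30 such cells, so no lower level is read from it. These comparisons share libraries, so their values stand side by side and do not support each other. The genes were counted on UMIs summed over cells. Single cycling cells had medians of 874 (E14.5), 564 (E15.5) and 910 CPM (P0). Their upper quartiles were 8340, 2080 and 8739 CPM in that order. P0 over E15.5 also pools 23 epithelial and 7 mesenchymal cells against 122 and 97. The P0 median was higher in epithelium, 1513 against 562 CPM, and lower in mesenchyme, 187 against 576. How far a few cells or the tissue mix carry these gene counts was not tested.

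The levels of single cells spread widely inside the cycling class. Cycling cells at E13.5 ran from 220 to 37417 CPM with a median of 5811, and the middle of the range was broad, with quartiles of 1129 and 19191. At E15.5 the quartiles were 203 and 2080 and the highest cycling cell, at 13092, lay below the upper quartile of E13.5. Non-cycling cells were narrower, with quartiles of 391 and 1020 at E13.5 and of 111 and 315 at E15.5. The highest cycling cells of each stage lay above every non-cycling cell of that stage, of which the highest had 3898, 2143, 2385 and 3061 CPM, while the lower parts overlapped.

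**Figure D2:**
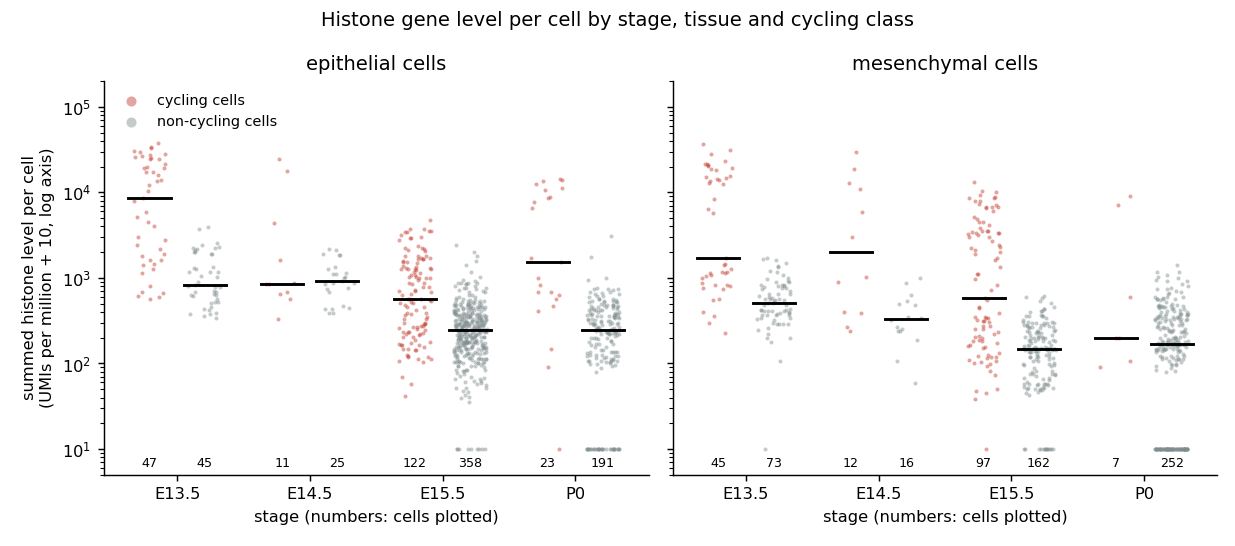
Summed histone level of each cell in CPM with 10 added (log axis), by stage, for epithelial (left) and mesenchymal cells (right), with cycling cells in red and non-cycling cells in grey; bars mark medians, numbers give the cells plotted, and cells with no histone UMI sit at 10. Cycling cells spread over a wide range at each stage, with many at the level of non-cycling cells, and in E15.5 epithelium the highest is at 4735.

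Within each library the summed histone level was higher in cycling cells. The summed ratio of cycling over non-cycling cells was 12.99 [12.4 to 13.7], 7.85 [7.24 to 8.51], 6.85 [6.58 to 7.14] and 23.7 [22.1 to 25.4] in stage order. It was above 1 in both tissues, at 9.94, 4.64, 3.47 and 22.9 in epithelial and 17.1, 21.1, 16.4 and 11.3 in mesenchymal cells in stage order, the last from 7 cycling cells. The medians of single cells lay closer together than the summed levels. In E14.5 epithelium the median was 841 CPM in cycling and 906 in non-cycling cells, and in P0 mesenchyme it was 187 against 157. H2A had the highest ratio of the types at each stage, from 14.8 at E15.5 to 65.5 at P0. H2B had the lowest at E13.5, E15.5 and P0, at 3.83, 1.44 and 6.43, and shared the lowest place with H4 at E14.5, at 3.51 [2.88 to 4.30] and 3.37 [2.84 to 4.02].

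Of the histone genes with at least 20 UMIs over both classes, 48 of 51, 34 of 38, 40 of 46 and 31 of 32 were at least 2-fold higher in cycling cells in stage order. The shares of all genes were 5.76%, 8.51%, 6.46% and 10.9%. At least 4-fold higher were 45, 24, 33 and 28 histone genes, against 2.36%, 2.90%, 2.28% and 2.11% of all genes. Median ratios were 9.94, 5.96, 7.21 and 28.9 for the histone genes and between 0.964 and 1.04 for all genes. At E14.5, 2 histone genes were at least 2-fold lower in cycling cells, Hist3h2ba and Hist3h2a (6.52% of all genes), and none was at the other stages, where 4.07%, 2.76% and 18.4% of all genes were. The class was drawn with 2 cell-cycle genes, so a higher level of other cell-cycle genes in it follows in part from how it was defined. Ratios of single genes pool both tissues, whose mix differed between the classes. At P0 there were 23 epithelial and 7 mesenchymal cycling cells, against 191 and 252 non-cycling cells. The part of this mix in the ratios was not tested.

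A gene was placed by its ratio in every stage with at least 20 UMIs. Cycle-bound, with a ratio of 4 or more in each of at least 2 such stages, were 25 of the 45 histone genes that could be placed, 55.6% (1.57% of all genes placed). Another 19 were in between (16.0% of all genes placed), 22 had too few UMIs to be placed, and 1, Hist1h2bc, was under 2-fold in every stage and so kept outside the cycle, as were 82.5% of all genes placed. Of the unplaced genes 4 had no UMI in any cell, among them the testis H1 gene Hist1h1t and the testis H2B gene Hist1h2ba, and 7 more had under 20. The other two at 0, Hist1h2bq and Hist2h2aa2, share every 60-base stretch of their last 300 bases with other genes, so their 0 is uncertain.

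The H2A genes gave the largest share of the histone UMIs in cycling cells at each stage. Hist1h2ap (ENSMUSG00000094777, chr13:21833026-21833507) had 5332, 1655, 559 and 1591 CPM in cycling cells in stage order, against 255, 85.6, 22.4 and 9.35 in non-cycling cells. Its ratios were 20.9 [19.1 to 23.0], 19.3 [15.4 to 24.7], 24.9 [22.0 to 28.3] and 170 [124 to 240]. Hist1h2ae had 1430, 763, 349 and 592 CPM in cycling cells and ratios from 12.96 to 79.2. Both genes together gave 60.6%, 40.6%, 55.1% and 37.2% of histone UMIs in cycling cells and between 38.5% and 6.79% in non-cycling cells. Every 60-base stretch in the last 300 bases of Hist1h2ap also occurs in another gene, so how its UMIs divide among H2A copies is uncertain. For Hist1h2ae this holds for 18.7% of the stretches. Hist1h2ab, Hist1h2an, Hist1h2ai and Hist2h2ac were also cycle-bound, with ratios of 8.92 or more. Of their stretches 68.9%, 79.7%, 99.2% and 6.22% are shared in that order, so the first 3 are uncertain too. Hist1h2ac was in between, at 5.54, 5.58, 1.75 and 14.1.

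Among the H3 genes, Hist1h3c had 245, 201, 25.9 and 207 CPM in cycling cells against 7.83, 7.78, 1.41 and 1.17 in non-cycling cells, ratios of 31.3, 25.8, 18.4 and 177. At P0 only 5 non-cycling cells had a UMI of Hist1h3c. Hist1h3b had 3, 1, 5 and 3 UMIs in all non-cycling cells of the stages, against 295, 68, 50 and 29 in cycling cells. Hist1h3e and Hist1h3f were cycle-bound too, but every 60-base stretch at the 3′ end of each also occurs in the other, and how their UMIs divide is uncertain. Hist1h4d, the highest of the H4 genes by mean level, had 540, 377, 56.5 and 600.1 CPM in cycling cells against 59.5, 112, 4.55 and 35.8 in non-cycling cells. Its ratios were 9.08, 3.36, 12.4 and 16.8. Hist1h4h, Hist1h4c and Hist1h4i had ratios between 3.00 and 28.8, and of the 13 H4 genes 1 was cycle-bound, 7 were in between and 5 could not be placed. The H2B genes Hist1h2bj and Hist1h2br were cycle-bound, with lowest ratios of 6.79 and 5.02. Of the 60-base stretches of Hist1h3c, Hist1h3b, Hist1h4h, Hist1h2bj and Hist1h2br 28.6%, 52.3%, 62.2%, 66.4% and 17.0% are shared in that order. Counts of these genes are uncertain to that extent.

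**Figure D3:**
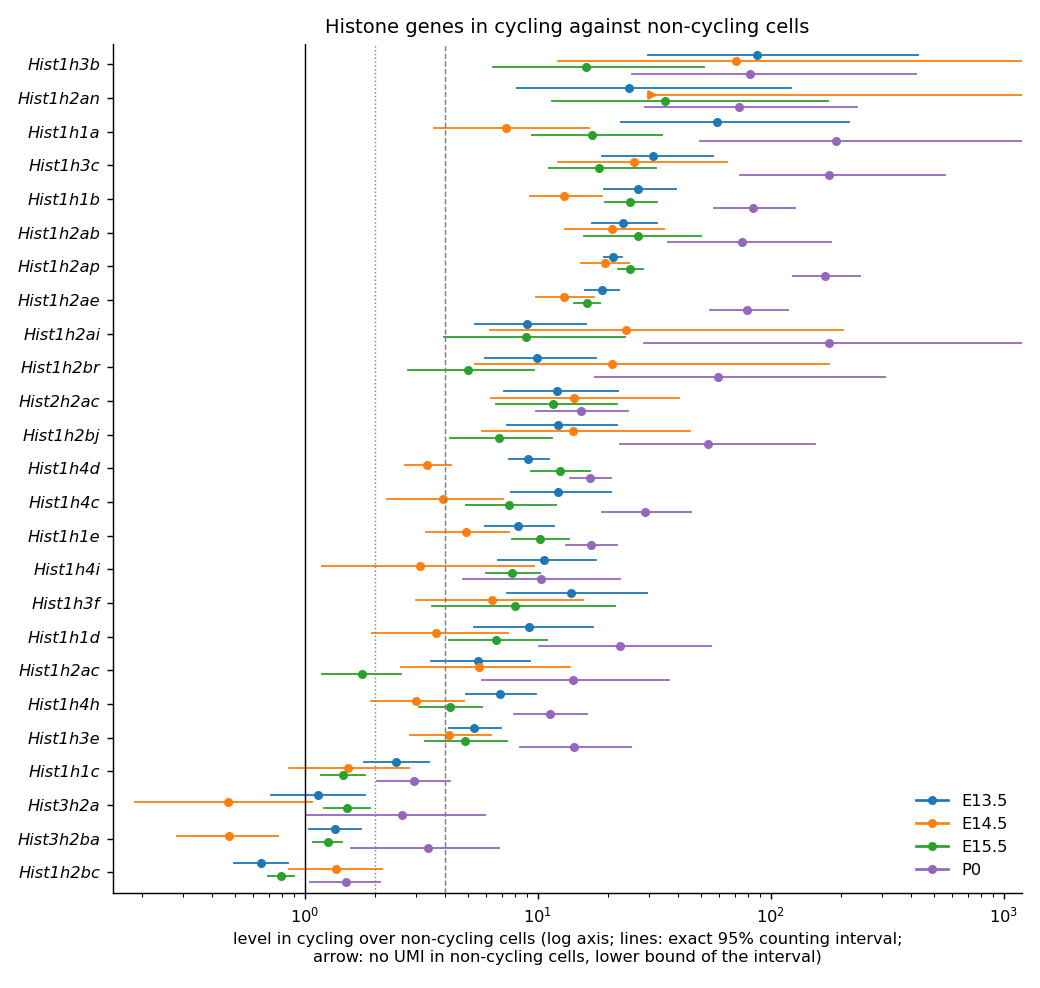
Ratio of the level in cycling over non-cycling cells (log axis) of 25 histone genes at each stage, with exact 95% counting intervals; the solid line marks equal levels, the dotted line 2-fold and the dashed line 4-fold, and an arrow marks a gene with no UMI in non-cycling cells. Most genes lie right of 4-fold, while Hist1h2bc, Hist3h2ba, Hist3h2a and Hist1h1c sit at the bottom, with ratios from 0.467 to 3.38.

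Hist1h2bc (ENSMUSG00000018102) was the only histone gene with at least 20 UMIs in 2 or more stages that stayed under 2-fold throughout. It had 47.7, 54.2, 47.7 and 82.9 CPM in cycling cells and 73.6, 40.0, 60.5 and 55.1 in non-cycling cells. Over both tissues together this was a near-level course next to that of Hist1h2ap. Apart, the tissues were not level. From E13.5 to P0 its non-cycling level fell in epithelium and rose in mesenchyme, as given below. The P0 cycling class held 23 epithelial and 7 mesenchymal cells, the non-cycling class 191 and 252. The part of this mix in the ratios of Hist1h2bc was not tested. The ratio was below 1 at E13.5, 0.649 [0.498 to 0.842], and at E15.5, 0.790 [0.694 to 0.897]. It was 1.35 at E14.5 [0.859 to 2.15] and 1.503 at P0 [1.06 to 2.09]. The call rests on the fold chosen, since under a 1.5-fold limit P0 lies just past it and no histone gene is kept outside the cycle. With Cdk1 and Cenpf in place of Top2a and Mki67 the E14.5 ratio was 2.92 [1.80 to 4.86] and the gene no longer met the rule. Per UMI of Hist1h2ap there were 0.00895, 0.0327, 0.0853 and 0.0521 UMIs of Hist1h2bc in cycling cells, and 0.289, 0.468, 2.69 and 5.90 in non-cycling cells. At E15.5, 52.5% of cycling and 55.7% of non-cycling cells had a UMI of Hist1h2bc, while for Hist1h2ap the shares were 72.6% and 32.8%. With every cell thinned to 5000 UMIs these became 19.2% and 23.4% for Hist1h2bc, and 45.2% and 9.98% for Hist1h2ap. Free RNA was not measured, so no background share stands beside these, and its part in them was not tested. None of the 60-base stretches in the last 300 bases of Hist1h2bc is shared with another gene.

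Hist3h2ba (ENSMUSG00000056895, chr11:58948920-58949533), another H2B gene, came next. It had 72.3, 28.8, 46.1 and 23.7 CPM in cycling and 53.7, 61.1, 36.8 and 7.01 in non-cycling cells. Its ratios were 1.35 [1.04 to 1.74], 0.471 [0.282 to 0.769], 1.25 [1.09 to 1.45] and 3.38 [1.58 to 6.80] in stage order, so that P0, with 12 UMIs in cycling cells, kept it from the rule. All 30 UMIs of Hist3h2ba in non-cycling P0 cells were in epithelium. The part of the tissue mix in its ratios was not tested. Its neighbour Hist3h2a, an H2A gene named here after its values were seen, had ratios of 1.13, 0.467, 1.51 and 2.60, the last from 8 UMIs in cycling cells. Without the P0 library both were under 2-fold throughout, and 3 genes in place of 1 were kept outside the cycle. With every cell thinned to 5000 UMIs, Hist3h2ba had ratios of 2.16 [1.31 to 3.58], 0.407, 1.32 and 6.71 in stage order. Hist3h2a was then at 2.43 [1.08 to 5.54] at E13.5 and 2.66 [1.61 to 4.33] at E15.5, with too few UMIs at E14.5 and P0. Neither gene was thus under 2-fold throughout at that depth. Without thinning, both genes of the Hist3 cluster had low ratios. The summed E13.5 to E15.5 difference in cycling cells was 1.40-fold for Hist3 [1.18 to 1.65] against 7.004-fold for Hist1 [6.85 to 7.16] and 7.003-fold for Hist2 [6.01 to 8.17].

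Among the linker histone genes, Hist1h1b (H1.5), the most abundant in cycling cells, had 479, 519, 136 and 567 CPM in cycling cells against 17.7, 40.0, 5.47 and 6.78 in non-cycling cells, ratios of 27.0, 12.97, 24.8 and 83.6. Hist1h1a (H1.1) had ratios of 58.6, 7.26, 17.1 and 190, and Hist1h1e (H1.4) of 8.22, 4.92, 10.2 and 16.9, all cycle-bound. At P0 only 2 non-cycling cells had a UMI of Hist1h1a. The 3′ end of Hist1h1e lies inside the annotated span of Hist1h2be, so its counts are uncertain. Hist1h1d (H1.3) was in between, at 9.20, 3.67, 6.61 and 22.5. Hist1h1c (ENSMUSG00000036181, H1.2, chr13:23738808-23740367) had 70.4, 35.7, 22.1 and 84.9 CPM in cycling and 28.7, 23.3, 15.2 and 28.7 in non-cycling cells. Its ratios were 2.45 [1.79 to 3.41], 1.53 [0.852 to 2.80], 1.46 [1.18 to 1.81] and 2.95 [2.04 to 4.21], the lowest of the H1 genes at each stage.

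The make-up of the H1 and H2B transcripts differed between the classes. Hist1h1b gave 52.9%, 61.1%, 57.0% and 48.7% of H1 UMIs in cycling cells and 23.3%, 32.7%, 19.2% and 11.2% in non-cycling cells. Hist1h1c gave 7.77%, 4.21%, 9.30% and 7.30% in cycling and 37.7%, 19.1%, 53.2% and 47.7% in non-cycling cells. In each library the intervals of both shares were apart between the classes. Hist1h2bc gave 6.89%, 10.6%, 30.5% and 18.6% of H2B UMIs in cycling and 40.6%, 27.5%, 55.9% and 79.5% in non-cycling cells. In the latter it was the leading H2B gene at E13.5, E15.5 and P0, and Hist3h2ba led at E14.5, with 42.0%. Of all histone UMIs, H2A gave 69.4%, 56.3%, 62.3% and 47.2% in cycling cells and 48.7%, 28.8%, 28.9% and 17.1% in non-cycling cells, and the share of H2B in the latter reached 44.99% at E15.5. The part of free RNA in the make-up of either class was not tested.

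**Figure D4:**
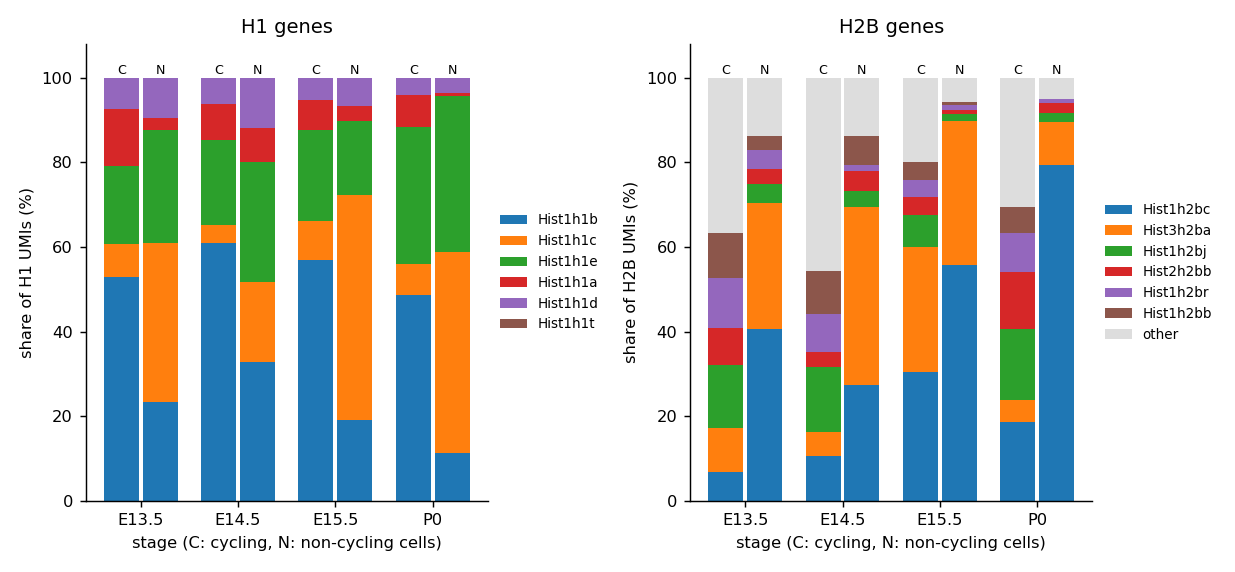
Share of H1 UMIs (left) and H2B UMIs (right) by gene in cycling (C) and non-cycling (N) cells of each stage, in percent; the remaining H2B genes are summed as other. Hist1h1b leads H1 in cycling cells, and Hist1h1c and Hist1h2bc take larger shares in non-cycling cells, up to 53.2% and 79.5%.

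Epithelium and mesenchyme differed in the summed histone level, but not in one direction. Over all cells the ratio of epithelial over mesenchymal cells was 1.76 [1.72 to 1.81], 0.581 [0.552 to 0.611], 0.392 [0.380 to 0.405] and 4.71 [4.34 to 5.12] in stage order. In cycling cells alone it was 1.24, 0.629, 0.358 and 2.53. Summed over cells, cycling mesenchyme had 2645 CPM against 948 in cycling epithelium at E15.5, and at P0 the order was turned, with 2516 against 6376. The medians of single cycling cells were close at E15.5, at 576 against 562 CPM, with upper quartiles of 3514 and 1362. At P0 these medians were 187 against 1513 CPM. The shares of cycling cells in the tissues moved with the order of the summed levels, at 122 of 532 epithelial and 97 of 283 mesenchymal cells at E15.5 and 23 of 230 and 7 of 273 at P0. In non-cycling cells the epithelium was higher at each stage, by 2.14-fold [1.94 to 2.36], 2.86-fold [2.33 to 3.52], 1.69-fold [1.54 to 1.86] and 1.25-fold [1.11 to 1.42]. Free RNA was not measured, and its part in these non-cycling levels was not tested.

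In non-cycling cells, 7 of 14 histone genes with at least 20 UMIs over both tissues were at least 2-fold higher in epithelium at E13.5 (10.6% of all genes), 9 of 11 at E14.5 (19.9%), 9 of 20 at E15.5 (18.0%) and 6 of 14 at P0 (23.3%). At least 2-fold lower in epithelium were 0, 1, 1 and 1 in stage order, against 21.1%, 16.5%, 20.9% and 19.4% of all genes. Hist1h2bc was 150.2 CPM in epithelial and 22.6 in mesenchymal cells at E13.5, a ratio of 6.65 [4.32 to 10.6]. The ratio was 1.503 at E14.5 [0.701 to 3.49] and 1.79 at E15.5 [1.49 to 2.17], and at P0 it was 0.589 [0.444 to 0.777], with 40.1 against 68.0 CPM. At E13.5, E15.5 and P0 Hist1h1c ran alike, at 54.9 against 11.3, 20.4 against 2.55 and 21.8 against 34.7 CPM. The ratios were 4.86 [2.56 to 9.87], 7.999 [4.12 to 17.8] and 0.629 [0.424 to 0.923]. Its E14.5 ratio, from 21 UMIs, is not given here. Both genes were thus higher in epithelium at E13.5 and E15.5 and in mesenchyme at P0, where the mesenchymal class also held the immune and haemoglobin transcripts given above, whose part in this was not tested. Hist3h2ba was higher in epithelium at each stage, at 48.7 against 7.93 CPM at E15.5, 6.15-fold [4.19 to 9.37], and with 30 UMIs in P0 epithelium against 0 in P0 mesenchyme.

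**Figure D5:**
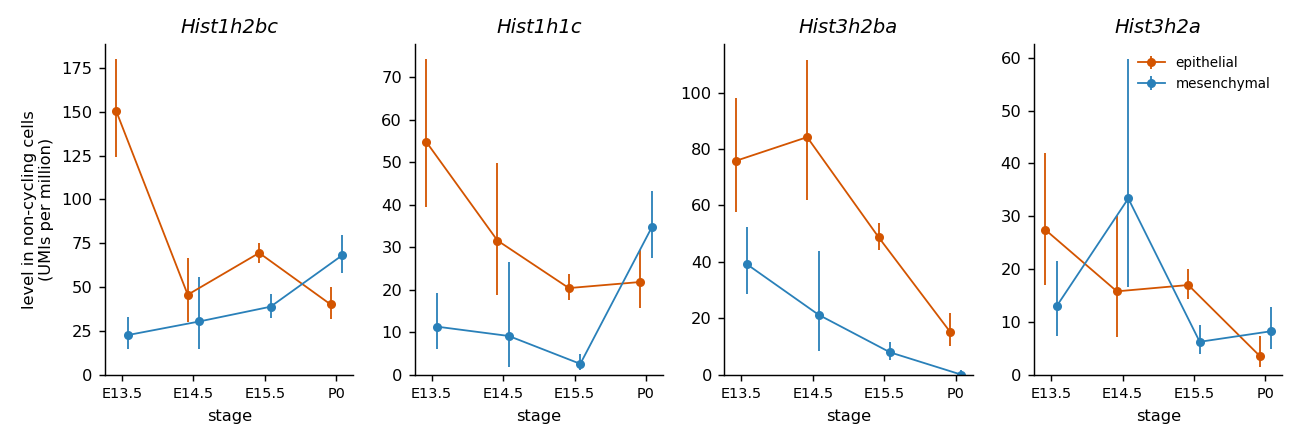
Level in CPM in non-cycling epithelial (orange) and mesenchymal cells (blue) of Hist1h2bc, Hist1h1c, Hist3h2ba and Hist3h2a at each stage, with exact 95% counting intervals; axes start at 0 and differ between panels. Hist1h2bc and Hist1h1c start higher in epithelium at E13.5 and are higher in mesenchyme at P0, at 68.0 and 34.7 CPM.

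Inside the cycling class, the histone level went with genes of S phase. Across cycling cells the rank correlation of the summed histone level with the S list was 0.438 (94 cells), 0.594 (23), 0.673 (219) and 0.746 (30) in stage order. With the M list it was 0.239, 0.158, 0.373 and 0.670, and with the UMIs of the cell 0.161, 0.254, 0.168 and 0.541. The cells of a stage share 1 library, so these are descriptions. Cycling cells were also split at their median histone level into a histone-high and a histone-low set. Of the S-list genes with at least 20 UMIs 8 of 20, 15 of 20, 16 of 20 and 9 of 9 were at least 2-fold higher in the histone-high set, against 3.93%, 8.08%, 4.46% and 16.6% of all genes. None was 2-fold lower, against 3.21%, 11.9%, 1.73% and 9.87% of all genes.

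Of the M list 3 of 20, 0 of 19, 4 of 20 and 11 of 11 genes were 2-fold higher in the histone-high set. The shares of all genes were 3.93%, 8.08%, 4.46% and 16.6%. At least 2-fold lower were 1, 1, 0 and 0 of the M list, against 3.21%, 11.9%, 1.73% and 9.87% of all genes. The median ratio of the M list was above that of all genes at each stage, at 1.26, 1.03, 1.59 and 4.03 against 0.988, 0.950, 1.01 and 1.11. The genes that follow come from the lists but were picked after their values were seen. At E15.5 Rrm2, a subunit of the reductase that makes deoxynucleotides, was at 139 against 30.1 CPM, 4.62-fold higher [3.76 to 5.74]. Slbp, which binds the histone stem-loop, was 3.51-fold higher there [3.09 to 3.996], and 2.55-fold at E13.5 [2.08 to 3.14]. Single mitotic genes differed in direction. Aurkb, a mitotic kinase, was 3.74-fold higher in the histone-high set at E13.5 [2.44 to 5.91] and 3.30-fold at E15.5 [2.52 to 4.37]. Cdc20, an activator of the anaphase-promoting complex, was at 0.590 of the histone-low level at E13.5 [0.436 to 0.795] and 0.694 at E15.5 [0.580 to 0.829]. Cenpa, the H3 of the centromere, was at 0.380 [0.301 to 0.477] and 0.554 [0.495 to 0.621]. At P0 Cdc20 had 11 UMIs in the histone-high and 0 in the histone-low set. The ratio of Cenpa at P0 was 1.27 [0.649 to 2.64], and the histone-high cells of P0 were deeper, with a median of 19852 against 10749 UMIs, the part of which was not tested.

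A coarser split of cycling cells, by whether the S or the M list had more UMIs, gave S-rich over M-rich ratios of 1.56 [1.52 to 1.597], 1.13 [1.07 to 1.197], 0.859 [0.829 to 0.890] and 0.855 [0.788 to 0.926] in stage order. Its direction turned at E14.5, E15.5 and P0 when cycling cells were defined at another UMI minimum, and at E15.5 when cells were thinned to 5000 UMIs, where it was 1.45, so no direction is read from it. Non-cycling cells with as much S list as the median cycling cell were not richer in histones throughout. There were 12, 6, 18 and 56 of them, with 0.763, 0.773, 1.22 and 0.950 times the histone level of the remaining non-cycling cells.

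The replacement histones had lower median ratios of cycling over non-cycling cells than the histone genes at each stage. Of 11 such genes 6, 6, 6 and 7 were at least 2-fold higher in cycling cells in stage order, with median ratios of 2.25, 2.18, 2.57 and 2.51. The shares of all genes were 5.76%, 8.51%, 6.46% and 10.9%, for this list and the others here. H3f3a, an H3.3 gene, had 1945, 1474, 1914.5 and 1121 CPM in cycling and 1802, 1396, 1810 and 902 in non-cycling cells. H2afx, which is phosphorylated at DNA breaks and is encoded by an mRNA that can end in either way, had ratios of 5.36, 8.57, 6.47 and 6.65. Of the histone chaperones 5 of 12, 4 of 12, 6 of 12 and 4 of 10 were 2-fold higher, led by Asf1b at 12.9 to 37.3 at the embryonic stages, while Asf1a ran from 1.02 to 1.49. Of genes for histone mRNA transcription and processing 3 of 12, 1 of 12, 2 of 13 and 6 of 12 were 2-fold higher. Slbp was at 2.72, 1.64, 2.75 and 2.05 and Casp8ap2 at 2.45, 1.96, 2.38 and 2.48. Both were under 2-fold at E14.5, where the 1 gene past it was Lsm11 at 2.65. At least 2-fold lower in cycling cells were 2 of 12 at E13.5 (4.07% of all genes), Lsm10 at 0.406 and Coil at 0.412, and 1 of 12 at P0 (18.4%), Coil at 0.422 from 1 UMI in cycling cells. The S list gave 15 of 20, 18 of 20, 18 of 20 and 14 of 17, with medians from 2.58 to 6.76.

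Genes with an annotated poly(A) signal had lower median ratios than those without, and the ranges overlapped. The medians were 6.92 (11 genes) against 12.1 (40) at E13.5, 3.11 (9) against 8.82 (29) at E14.5, 3.00 (11) against 8.01 (35) at E15.5 and 11.3 (9) against 53.5 (23) at P0. Of the 17 genes with a signal 2 were cycle-bound, 8 in between and 7 unplaced, and of the 50 without 23 were cycle-bound, 11 in between, 1 kept outside the cycle and 15 unplaced. Hist1h1c, Hist3h2ba and Hist3h2a have a signal, and Hist1h2bc has none within 50 bases of its annotated end. These genes share library and 3′ sequence, so the medians are descriptions.

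Promoters of 61 of the 67 genes were found in RefSeq on GRCm38.p6, from 250 bases before to 50 bases after the start. On either strand, 85.2% of them held CCAAT, against 37.4% of 32851 mouse promoters, and 55.7% held TATAAA, against 13.6%. CCAAT was in all 5 H1, 18 H2A, 16 H2B and 10 H3 promoters and in 3 of 12 H4 promoters. The octamer ATTTGCAT was in 7 H2A and 6 H2B promoters and in no H1, H3 or H4 promoter, and in 1.74% of all. The H1 element AAACACA was in 4 of 5 H1, 2 of 18 H2A and 2 of 16 H2B promoters, in no H3 or H4 promoter, and in 7.18% of all. Windows of some neighbouring H2A and H2B genes overlap, such as those of Hist1h2aa and Hist1h2ba. A motif in the overlap was counted for both genes. The windows of Hist1h2bq and Hist1h2br hold the same letters. The promoters are thus not all separate sequences, and the shares count some DNA more than once. The promoters of Hist1h1b and Hist1h1c are shown because Hist1h1b leads the H1 genes in cycling cells and Hist1h1c has the lowest H1 ratios, and that of Hist1h2ab for its octamer, with matches to any of these motifs in capitals. Their positions are chr13:21780576-21780875 on the minus strand, chr13:23738557-23738856 and chr13:23750838-23751137, both on the plus strand.
Hist1h1b: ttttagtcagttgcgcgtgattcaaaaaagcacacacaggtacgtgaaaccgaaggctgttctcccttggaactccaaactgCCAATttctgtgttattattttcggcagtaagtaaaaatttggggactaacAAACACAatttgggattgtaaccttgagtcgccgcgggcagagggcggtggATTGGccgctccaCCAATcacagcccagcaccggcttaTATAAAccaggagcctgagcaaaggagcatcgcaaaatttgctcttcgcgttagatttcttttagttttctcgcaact
Hist1h1c: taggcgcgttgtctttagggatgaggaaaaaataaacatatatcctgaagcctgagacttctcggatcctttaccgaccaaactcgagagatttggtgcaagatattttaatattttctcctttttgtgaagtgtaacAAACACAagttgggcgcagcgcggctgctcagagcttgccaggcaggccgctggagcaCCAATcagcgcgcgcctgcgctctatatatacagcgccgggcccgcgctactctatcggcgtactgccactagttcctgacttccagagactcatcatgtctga
Hist1h2ab: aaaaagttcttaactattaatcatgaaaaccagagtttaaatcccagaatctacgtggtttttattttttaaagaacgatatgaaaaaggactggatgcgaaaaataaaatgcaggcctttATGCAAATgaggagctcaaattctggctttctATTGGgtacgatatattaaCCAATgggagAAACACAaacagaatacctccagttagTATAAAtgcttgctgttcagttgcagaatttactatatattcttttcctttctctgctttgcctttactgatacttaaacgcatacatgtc
Both H1 promoters held AAACACA and CCAAT, and TATAAA was found in that of Hist1h1b and not in this window of Hist1h1c.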

How the data were processed

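The authors deposited, for each of the 4 libraries, a matrix of UMI counts per gene and cell barcode with no normalization, made with Cell Ranger on a pre-built mm10 reference, version 3.1.0 at E15.5 and 6.0.0 at the other stages per the file headers, while the labels name 6.0.0 for each. The E15.5 gene list has 31053 genes and the others 32285, so the reference annotation differed too. The deposited barcodes numbered 981, 807, 2642 and 1466 in stage order, with 500 UMIs or more each. The study's filter, a minimum of 5000 UMIs and a maximum of 6% mitochondrial UMIs, left 4506046, 2111282, 21559040 and 5122125 UMIs in the cells used. The study reports fewer cells than were used here at each stage under these limits, and the reason was not tested. No doublet caller was run here. Mixed cells, in which the smaller of both tissue sums was at least 20% of the larger, numbered 6, 0, 6 and 9, and 1 alternative left them out. No barcode was shared between the kept cells of 2 stages.

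Histone genes were matched by symbol and Ensembl identifier. Counts were summed over the cells of a class and divided by their total to CPM, with exact 95% Poisson intervals, and ratios have exact conditional binomial intervals. Shares have Clopper-Pearson intervals. A ratio needed 20 UMIs over both groups. With 1 library per stage no test was made. Computation used Python 3.11.15, numpy 2.4.6 and scipy 1.17.1, and was tested on simulated data. Genes named with values were the 24 with the highest mean level, every H1 gene with 20 UMIs, genes kept outside the cycle, and those with ratios clear of 1 on opposite sides in 2 stages. The genes and lists were chosen with earlier results of these data known. Alternatives changed the cell filters, the cycling rule and its genes, the weighting and thinning of cells, the UMI minimum and fold of a call, the gene lists and the mixed cells, and left out Hist1h2ap. Alternatives leaving out each stage were added after seeing the data. Stem-loops and poly(A) signals were searched in GENCODE M21 transcripts, and promoters were taken from RefSeq on GRCm38.p6. Promoters of Hist1h1d, Hist1h2bc, Hist1h3a, Hist1h3f, Hist2h2be and Hist2h4 were not analysed here.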

Additional observations from a re-analysis of the deposited data

Results flagged for a closer look

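Barcodes left out by the cell filters also held histone transcripts, at a summed level of 3227, 2353, 1028 and 399 CPM in stage order, from 746, 731, 1826 and 963 barcodes. These barcodes have fewer UMIs or a larger mitochondrial share, and they entered no comparison. Their summed level lay above that of the non-cycling cells used at each stage.

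The ratio of Hist1h2bc in cycling over non-cycling cells lay on opposite sides of 1 between stages, with intervals clear of 1, at 0.649 at E13.5 and 0.790 at E15.5 against 1.503 at P0. The same held for Hist3h2ba, at 0.471 at E14.5 against 1.35 at E13.5, 1.25 at E15.5 and 3.38 at P0. The differences between stages were not tested, since each stage has 1 library. Each ratio also pools both tissues, whose mix differed between the classes, and the part of this was not tested.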

How the results depend on the processing

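Of 205 values under other settings 114 moved by less than the counting interval or, for counts, by under 1.5 times, 87 moved further and 4 changed direction, and the cause was not tested. All 40 summed ratios of cycling over non-cycling cells stayed above 1, from 4.99 to 31.0. Values below are in stage order unless a stage is named. No paired analysis was possible because each stage has 1 library.

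With each cell thinned to 5000 UMIs the level was 4829, 2376, 642 and 499 CPM, the cycling ratio 14.3, 9.57, 8.07 and 21.5, and the epithelial over mesenchymal ratio 2.01, 0.678, 0.507 and 2.88. The S-rich over M-rich ratio was 1.35, 3.13 and, reversed at E15.5, 1.45. Only 31, 7, 12 and 12 genes were then past 2-fold and 11 were cycle-bound, with fewer UMIs per gene. Neither the genes with enough UMIs nor the share of all genes was counted under this setting. These counts therefore cannot be set against those of the main setting. With each cell weighted equally the level was 4770.2, 2356, 617 and 503 CPM, the cycling ratio 6.38 (E15.5) and 17.8 (P0), the tissue ratio 1.91, 0.661, 0.491 and 2.78, and the S-rich ratio 1.44, 1.28, 0.896 and 0.578. Without Hist1h2ap the level was 3110.5, 2159.8, 524 and 642 CPM, the cycling ratio 9.64, 6.38, 4.99 and 17.9, and the tissue ratio 1.55, 0.616, 0.480 and 4.04.

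Cycling at 1 UMI of Top2a and Mki67 gave cycling ratios of 11.01, 5.91, 5.67 and 14.8, 2 genes kept outside the cycle (Hist1h2bc and Hist3h2a), and S-rich ratios of 1.17, 0.686 (reversed), 0.630 and 0.400. At 5 UMIs the cycling ratios were 15.53, 9.38, 8.52 and 31.0 and the S-rich ratios 1.92, 1.48, 1.26 and 1.49, the last 2 reversed. With Cdk1 and Cenpf the cycling ratio moved at E13.5 (11.6), E15.5 (7.17) and P0 (27.6), and the 1 gene kept was Hist4h4 in place of Hist1h2bc. From 3000 UMIs per cell, E14.5 had a cycling ratio of 6.77 and a tissue ratio of 0.614, and E15.5 a level of 778 CPM and ratios of 7.17, 0.449 and 0.897 (S-rich). With up to 10% mitochondrial UMIs, E14.5 had 2588 CPM, 6.94 and 0.549, and E15.5 698 CPM, 6.36, 0.413 and 0.941. Without mixed cells E13.5 had 5905 CPM and an S-rich ratio of 1.45.

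With a minimum of 50 UMIs 3 genes were kept outside the cycle, Hist1h2bc, Hist3h2ba and Hist3h2a, and 20, 26 and 12 were past 2-fold at the last 3 stages. With no minimum and 1 CPM added, 2 were kept (Hist1h2bc and Hist2h3c2), 16 were cycle-bound, and 53 (E14.5) and 54 (P0) were past 2-fold. For these minimums too, the genes with enough UMIs and the shares of all genes were not counted. Under a 1.5-fold limit in place of 2-fold 0 genes were kept, since Hist1h2bc stood at 1.503 at P0. Without the P0 library, a choice made after seeing the data, 3 were kept. E14.5 and P0 rest on 23 and 30 cycling cells.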
